A study of Gallus gallus with 10 samples.

Results

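Posterior placode progenitors (pPPs) of the chick, the head ectoderm that normally forms the inner ear and the epibranchial ganglia, were compared on arrays when freshly dissected and after 5 hr as isolated explants. The arrays were chosen by their sample titles alone: 3 hold uncultured posterior preplacodal ectoderm (pPP sets 1, 2 and 3) and 2 hold cultured pPPs (sets 1 and 2), together 5 of the 10 arrays of the series. The other 5 hold anterior progenitors of lens and olfactory epithelium (aPPs), 3 fresh and 2 cultured in the same way. Embryos are titled HH6 and their stage is given as HH5-7. The ectoderm was cut out by hand, and cultured pieces were embedded in collagen from rat tail, with no genetic change and no added factor named in the labels. The sources used here do not say how many embryos went into an array. No array here holds posterior ectoderm that stayed in the embryo while explants were cultured, so that isolation, the collagen culture and added age cannot be told apart. No label says that sets are separate collections, and p-values therefore measure only the spread between these samples, which may be technical.

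The preplacodal region is a band of ectoderm around the anterior neural plate that holds the precursors of the sense organs and sensory ganglia of the head. FGF, BMP and Wnt signals from surrounding tissues set it apart from neural plate, neural crest and epidermis, and divide it along the body axis into anterior progenitors with Pax6 and posterior progenitors with genes such as Gbx2. The comparison asks which transcripts change when pPPs are taken out of the embryo and cultured alone.

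Each value below is a normalized MAS5 signal in arbitrary units. Differences were taken on log2(signal + 16), which understates the change of dim genes. A probe set was called when its adjusted p (limma, Benjamini-Hochberg over the 21591 probe sets tested) was under 0.05, and 1 probe set stood for each of 9760 named genes. Log2 signals of the array labelled cultured pPP set 2 correlated at 0.984 and 0.985 with the 2 cultured aPP arrays. Its correlation with cultured pPP set 1 was lower, at 0.979. Cultured pPP set 1 correlated with no array more closely than with this one, and had 0.973 and 0.971 with the cultured aPP arrays. With fresh pPP sets 1, 2 and 3 the array labelled set 2 had 0.977, 0.971 and 0.972, and set 1 had 0.968, 0.962 and 0.957. The title of the array labelled cultured pPP set 2 conflicts with the deposited table of detection calls. There its signals stand, identical in every probe set, under a column named for cultured anterior tissue of set 2, while no column is named for cultured posterior tissue of that set. Which of the names is right cannot be settled from the names alone. Of 83 genes higher in uncultured pPPs than in uncultured aPPs, 75 lay above both cultured aPP arrays on it and 2 below both. On cultured pPP set 1 these counts were 64 and 12. Of 147 genes higher in uncultured aPPs, 110 lay below both cultured aPP arrays on it and 14 above both, against 89 and 36 on cultured pPP set 1. By both counts the array differed from the cultured aPP arrays in the direction of its title. The transcription factor gene ZIC1, named after its values were seen, had 493, 420.4 and 239 in pPP sets 1, 2 and 3, 461 and 407 in cultured pPP sets 1 and 2, and 19.0 and 70.3 in the cultured aPPs. The array was kept under its title, and the counts of each list are also given without it.

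After 5 hr, 483 probe sets were higher in cultured pPPs (2.24 percent of those tested) and 366 were lower (1.7 percent). Counted as genes with 1 probe set each, 307 rose (3.15 percent) and 179 fell (1.83 percent), and the median log2 difference of all 9760 was 0.02. These shares are the background for the count of each gene list below. The lists were chosen with earlier results of these data known, so a count above the background is no test of a list. Without the array labelled cultured pPP set 2, 426 probe sets were higher and 536 lower. Without cultured pPP set 1, only 96 and 69 were called, and without pPP set 2 there were 229 and 183. On signals as deposited, with no normalization between arrays, 10 were higher and 8 lower. The plot of difference against level shows that the called probe sets spread over the whole range of levels, and smaller differences were called at the highest levels.

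**Figure D1:**
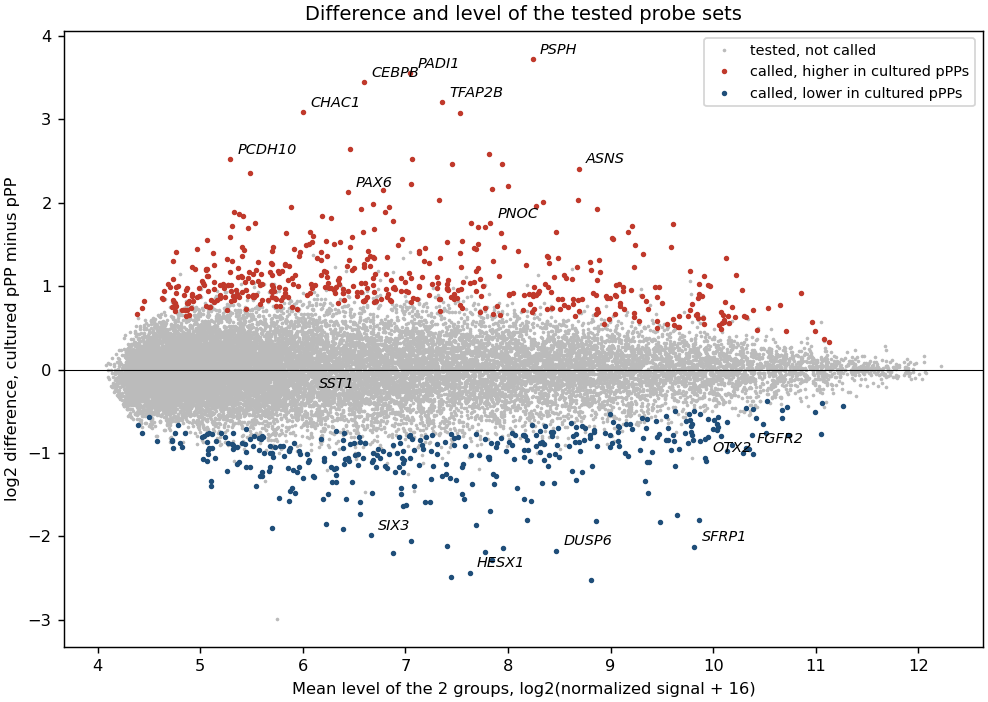
Each point is 1 of 21591 tested probe sets, with the mean level of pPPs and cultured pPPs on the x axis (log2 of normalized signal + 16) and the log2 difference of cultured pPPs to pPPs on the y axis. PSPH at 3.72 and HESX1 at -2.44 lie near the upper and lower edges, and SST1 at -0.28 lies among the probe sets not called.

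Genes of anterior placode identity changed in both directions. PAX6, the transcription factor required for lens and olfactory placodes, had signals of 35.8, 16.4 and 27.3 in pPP sets 1, 2 and 3 and 201 and 137 in cultured pPP sets 1 and 2. The cultured arrays both lay far above the fresh ones (log2 difference 2.13, standard error 0.31, adjusted p = 0.0012). PROX1, a homeobox gene of lens fibre differentiation, also rose, from 20.4, 25.0 and 20.7 to 53.7 and 59.9 (log2 difference 0.94, adjusted p = 0.0367), but did not pass when any 1 of the 5 arrays was left out (adjusted p = 0.0733 to 0.191). In contrast, HESX1, a homeobox repressor of the early forebrain and anterior placodes, fell from 405, 512 and 422 to 66.0 and 72.2 (log2 difference -2.44, adjusted p = 6.82e-06). SIX3, a homeobox gene of forebrain and lens, went from 216, 195 and 152 to 40.5 and 30.1 (-1.98, adjusted p = 0.00123). OTX2, which marks the anterior head, went from 1258, 1452 and 1443 to 785 and 547 (-1.06, adjusted p = 0.00209), and its other tested probe set fell as well (-1.56, adjusted p = 0.000248). For all 3 no fresh array overlapped a cultured one, but the share of all probe sets without overlap was not counted. In all, 2 of 17 tested genes of lens, olfactory and anterior ectoderm rose and 3 fell, with a median log2 difference of -0.04, and the same numbers were called without the array labelled cultured pPP set 2.

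Genes shared by all placode progenitors are set beside all genes, of which 3.15 percent rose and 1.83 percent fell. With so few genes, the count does not show that the list was stable. Of 14 tested genes of the preplacodal region none rose and 1 fell, the zinc finger gene ZNF462 (-0.87, adjusted p = 0.0402), with a median of -0.01. It was lost without pPP set 1 or 2 or either cultured array (adjusted p = 0.0613 to 0.213), and without set 2 of the cultured pPPs 1 other member was lower. Of 3 further probe sets of ZNF462, 1 fell (-0.71, adjusted p = 0.042). EYA2, a transcriptional cofactor of the preplacodal network, had 199.6, 92.7 and 176 in fresh and 247 and 211 in cultured pPPs (log2 difference 0.56, adjusted p = 0.34), and pPP set 2 was the lowest array. The distal-less gene DLX5 had 2382, 1622 and 2419 before and 2358 and 2157 after culture (0.10, adjusted p = 0.758), with overlapping groups. The AP-2 gene TFAP2A lay between 498 and 818 on all 5 arrays. PAX2, a paired box gene of the otic placode, did not reach the 2 present calls required for a test.

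For posterior identity genes the count was likewise small, beside 3.15 percent of all genes that rose and 1.83 percent that fell. It does not show that posterior identity was kept. GBX2, a homeobox gene of the posterior placode domain, had 239, 161 and 194 in fresh pPPs and 203 and 212 in cultured ones (log2 difference 0.08, adjusted p = 0.895). The cultured values lay within the fresh range. Of 13 tested otic, epibranchial and posterior genes, 1 rose and none fell, with a median of 0.08. The riser was SOX8, a SoxE gene of otic placode and neural crest, at 19.3, 20.4 and 14.2 in fresh and 34.8 and 45.9 in cultured pPPs (0.73, adjusted p = 0.0425). Without the array labelled cultured pPP set 2, 2 genes of this list were called lower and none higher, and SOX8 did not pass when any 1 of the 5 arrays was left out (adjusted p = 0.0726 to 0.179). IRX1, an Iroquois homeobox gene, had 399, 200.1 and 258 before and 551 and 413 after culture (0.76, adjusted p = 0.125).

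Of 22 tested genes of the neural plate border and neural crest 7 rose and none fell, with a median of 0.40, where 3.15 percent of all genes rose. The list was chosen with earlier results of these data known, so the comparison with that share does not test it. EDNRB, a receptor gene of the crest that is not on the list, fell (log2 difference -2.14, adjusted p = 0.00176). Its other probe set fell too (-2.19, adjusted p = 0.00298). TFAP2B, an AP-2 transcription factor of border and crest, had 50.3, 25.5 and 40.9 in fresh pPPs and 586 and 397 in cultured ones. The lowest cultured array was several fold above the highest fresh array (log2 difference 3.21, standard error 0.26, adjusted p = 6.82e-06). MSX2, a homeobox gene of the border and a BMP target, was detected on no fresh array and was at least 2.84-fold higher at 52.5 and 32.1 (adjusted p = 0.0011). SNAI2, a zinc finger repressor of the epithelial to mesenchymal transition of the crest, went from 32.8, 26.7 and 49.4 to 200.5 and 94.8 (1.59, adjusted p = 0.00789). TFAP2C (1.10), the secreted axon guidance factor DRAXIN (1.05), MSX1 (0.88) and SOX8 were also called. SNAI1, a relative of SNAI2, had 129, 256 and 96.5 before and 290.3 and 292 after culture (0.90, adjusted p = 0.0928) and the paired box gene PAX7 had 19.1, 21.4 and 25.2 before and 32.1 and 30.8 after culture (0.33, adjusted p = 0.313). The crest genes FOXD3, SOX10 and SOX9 had 0.07, 0.08 and 0.39 and were not called (adjusted p = 0.934, 0.870 and 0.382). MYCN, SOX5 and ZIC2 had -0.55, -0.48 and -0.39 and were not called either (adjusted p = 0.0869, 0.275 and 0.518). Of the 22 genes of this list, 17 had a log2 difference above 0, where 5145 of all 9760 genes did. Without cultured pPP set 1 the list had 2 members higher, and without set 2 it had 5 higher and 1 lower. MSX1 did not pass without pPP set 1 (adjusted p = 0.1). TFAP2C and MSX1 did not pass without pPP set 2 (adjusted p = 0.0656 to 0.158). SNAI2, TFAP2C, DRAXIN and MSX1 did not pass without cultured pPP set 1 (adjusted p = 0.138 to 0.335). MSX1 did not pass without cultured pPP set 2 (adjusted p = 0.0641). TFAP2B and MSX2 passed with each of the 5 arrays left out. Of 12 tested neural plate genes 4 had a log2 difference above 0, with a median of -0.36, beside the same 5145 of all 9760 genes. SOX3, a SOX transcription factor gene, had 306, 375 and 304 before and 152 and 206 after culture (-0.83, adjusted p = 0.0515). Its groups did not overlap, but it was not called. None of the 12 was called lower and 1 was called higher. It was the proneural gene NEUROG2, at 19.1, 15.6 and 8.34 before and 29.6 and 37.0 after culture (0.71, adjusted p = 0.0499), which was lost without pPP set 2 or 3 or either cultured array (adjusted p = 0.097 to 0.18). Without the array labelled cultured pPP set 2, 2 neural plate genes were lower.

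Of 22 tested genes of surface ectoderm, 7 rose and 1 fell, with a median of 0.53. Of all genes 3.15 percent rose and 1.83 percent fell, and the comparison does not test this list either. PADI1, an enzyme that converts arginine in proteins to citrulline, went from 34.1, 7.44 and 32.8 to 519 and 369 (log2 difference 3.56, standard error 0.34, adjusted p = 4.8e-05). ANXA1, a calcium dependent membrane binding protein, was not detected on any fresh array and was at least 4.77-fold higher, at 54.8 and 129.7 (adjusted p = 0.000294). GRHL3, a grainyhead factor of epidermal differentiation, had 0.9, 4.22 and 13.9 before and 58.0 and 69.2 after culture (1.87, adjusted p = 0.00491), but its other tested probe set had -0.40 (adjusted p = 0.245). The keratin gene KRT7 had 456, 196 and 446 before and 1149.5 and 859 after culture (1.49, adjusted p = 0.00478). E-cadherin, CDH1, rose from 1391, 953 and 1093 to 2149 and 1691 (0.74, adjusted p = 0.00735), and TFAP2C and MSX1 are counted here too. The member that fell was BMP4 (-0.93, adjusted p = 0.0309). Of the 22 genes, 16 had a log2 difference above 0, where 5145 of all 9760 genes did. Members not called included TP63 (-0.13), GRHL1 (-0.09), KLF5 (0.002) and ESRP1 (-0.65, adjusted p = 0.75, 0.858, 0.997 and 0.125). The epithelial adhesion gene EPCAM had 2880.1, 2854 and 3044 before and 2494 and 2659 after culture (-0.18, adjusted p = 0.334), and the hypoxia factor gene EPAS1 had 249, 97.6 and 298 before and 373 and 541 after culture (1.14, adjusted p = 0.0665). On pPP set 2 several of these genes were below the other fresh arrays, among them PADI1, KRT7 and EPAS1, and without that array 5 of the list rose and 1 fell. Without cultured pPP set 1, 2 rose and none fell, and without set 2, 6 rose and none fell. GRHL3, KRT7 and CDH1 did not pass without cultured pPP set 1 (adjusted p = 0.0609 to 0.171). PADI1 and ANXA1 passed with any 1 of the 5 arrays left out.

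**Figure D2:**
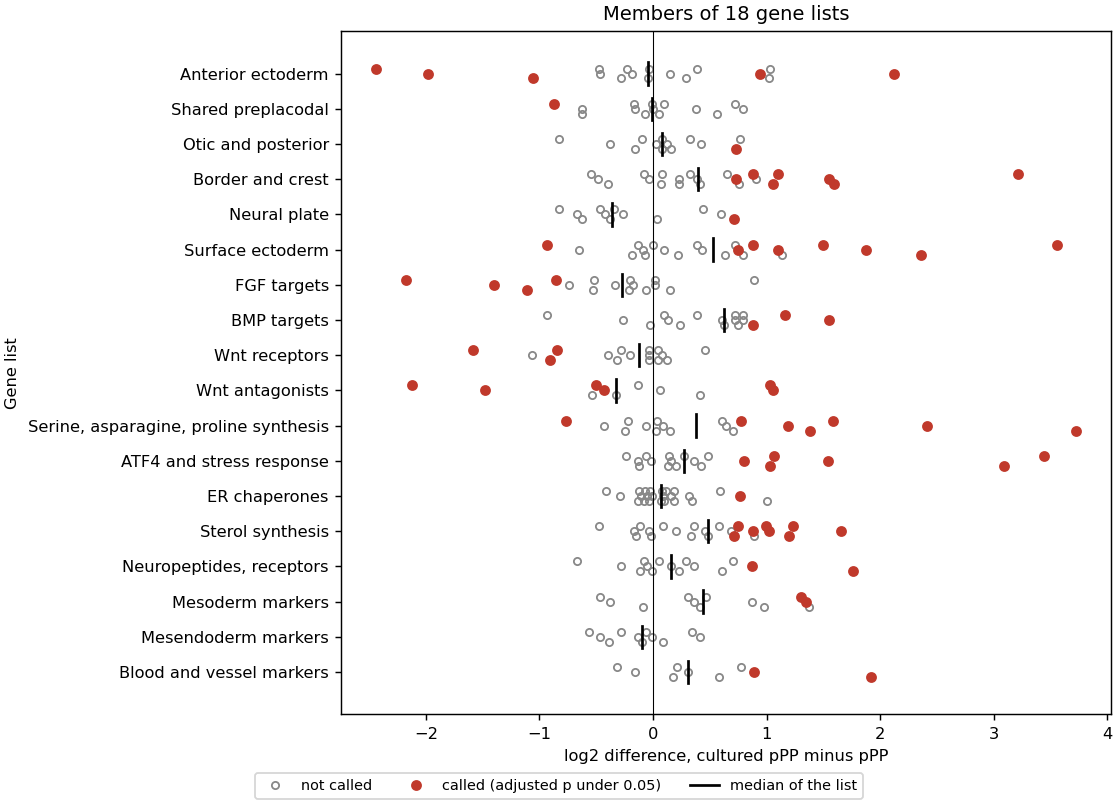
Each circle is 1 gene of a list, placed by its log2 difference of cultured pPPs to pPPs (x axis), with called genes filled and the median of the list as a bar. The list of border and crest has 7 filled circles on the right and none on the left, and that of FGF targets 4 on the left and none on the right.

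FGF signaling genes fell where they changed. FGF ligands bind receptor tyrosine kinases, and active ERK then induces the phosphatases and ETS factors that serve as readouts of the pathway. None of the 5 tested ligand genes was called, with a median of 0.10. Of 5 tested receptor genes 1 fell: FGFR2 had 1974, 1856 and 1574 in fresh and 853 and 998 in cultured pPPs (log2 difference -0.95, standard error 0.14, adjusted p = 0.00147). Of 4 further probe sets of FGFR2, 3 fell too. Of 16 targets and feedback inhibitors, 4 fell and none rose, with a median of -0.27. DUSP6, a phosphatase that inactivates ERK, had 701, 1092 and 524 before and 110.3 and 205 after culture, and pPP set 2 was the highest array (-2.17, adjusted p = 0.000792). DUSP4, a phosphatase of the same family, had 177, 215 and 223 before and 56.4 and 80.6 after culture (-1.40, adjusted p = 0.00123). The ETS factor gene ETV5 had 1006, 856 and 992 before and 498 and 372 after culture (-1.11, adjusted p = 0.00123). For DUSP6, DUSP4 and ETV5 the groups did not overlap, a separation whose share over all probe sets was not counted. Dimmer probe sets of ETV5 did not pass (-0.50 and -0.67, adjusted p = 0.235 and 0.0706). CCND1, the cyclin of entry into the cycle, had 936, 1111 and 1083 before and 536 and 600.5 after culture (-0.86, adjusted p = 0.0082) and was lost without cultured pPP set 1 (adjusted p = 0.123). SPRY2, an inhibitor of receptor tyrosine kinase signaling, had 83.5, 71.0 and 89.6 before and 43.2 and 60.1 after culture (-0.53, adjusted p = 0.188). The immediate early gene EGR1 had 28.9, 12.8 and 26.0 before and 55.2 and 52.9 after culture (0.89, adjusted p = 0.127), the opposite sign. Without either cultured array in turn, 3 (set 1) and 4 (set 2) targets fell, and with either left out 1 receptor gene fell and no ligand gene was called.

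Targets of BMP signaling rose where they changed. BMP ligands act through serine kinase receptors and SMAD proteins, which induce MSX and ID genes together with their own inhibitors. Of 9 tested ligand genes of the BMP and activin family 2 rose and 1 fell, with a median of 0.27. BMP2 had 89.4, 31.4 and 60.05 in fresh and 186 and 191 in cultured pPPs (1.49, standard error 0.34, adjusted p = 0.021). TGFB3 had 75.7, 83.2 and 95.7 before and 209 and 131 after culture (0.86, adjusted p = 0.0412). BMP4 went the other way, from 61.5, 42.2 and 70.7 to 20.4 and 24.4 (-0.93, adjusted p = 0.0309), while its further probe sets did not pass (-0.83 and -0.07, adjusted p = 0.138 and 0.902). None of 12 receptor and SMAD genes and none of 7 antagonist genes was called, with SMAD1 at -0.32 (adjusted p = 0.464). Of 17 targets and feedback inhibitors 3 rose and none fell, with a median of 0.62. BAMBI, a decoy receptor that blocks BMP and TGF-beta signaling, had 368, 202 and 370.5 before and 738 and 662 after culture (1.17, adjusted p = 0.0149), and the others were MSX1 and MSX2. The inhibitory SMAD genes SMAD6 and SMAD7 had 0.79 and 0.61 (adjusted p = 0.103 and 0.217), and ID1, a direct SMAD target, had 421, 371 and 435 before and 381 and 299 after culture (-0.26, adjusted p = 0.417). Of these targets 1 rose without cultured pPP set 1, and 3 rose and 1 fell without set 2. No ligand gene rose without pPP set 2. With the array labelled cultured pPP set 2 left out, 1 ligand gene rose, none fell, and no receptor or antagonist gene was called. TGFB3 and BMP4 did not pass without pPP set 1 (adjusted p = 0.0747 to 0.106). BMP2 and TGFB3 did not pass without pPP set 2 (adjusted p = 0.0838 to 0.112). TGFB3 and BMP4 did not pass without pPP set 3 (adjusted p = 0.0609 to 0.103). BMP2, TGFB3, BMP4 and BAMBI did not pass without cultured pPP set 1 (adjusted p = 0.174 to 0.42). BMP2 and BMP4 did not pass without cultured pPP set 2 (adjusted p = 0.0696 to 0.0792).

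Wnt genes were called among inhibitors, receptors, ligands and targets. Of 11 tested antagonist genes 4 fell and 2 rose, with a median of -0.32. SFRP1, a secreted decoy for Wnt, had 1703, 2039.8 and 1875 in fresh and 393 and 440.1 in cultured pPPs (log2 difference -2.12, standard error 0.13, adjusted p = 2.83e-07). A second probe set of SFRP1 fell too (-2.48, adjusted p = 6.82e-06) and dim others had -0.44 and -0.51 (adjusted p = 0.288 and 0.12). SHISA2, which retains Frizzled and FGF receptors in the endoplasmic reticulum, had 1074, 1056 and 1134 before and 278 and 517 after culture (-1.48, adjusted p = 0.00071). FRZB (-0.50, adjusted p = 0.0174) and DACT2 (-0.43, adjusted p = 0.0249) fell as well. The 3 further probe sets of DACT2 were all called lower, with larger differences of -0.97, -1.01 and -0.89 (adjusted p = 0.00835, 0.00111 and 0.0222). The Dickkopf receptor gene KREMEN1 rose (1.06, adjusted p = 0.0115), and APCDD1, detected on no fresh array, was at least 1.86-fold higher (adjusted p = 0.008), with -0.02 in its other probe set (adjusted p = 0.965). RSPO3, a secreted activator of Wnt signaling that is on none of the lists, went from 1697, 2129.8 and 1425 to 555 and 421 (-1.80, adjusted p = 0.000132), and its other probe set had -2.52 (adjusted p = 9.62e-05). Of 16 receptor genes 3 fell and none rose, with a median of -0.12: FZD5 (-1.58, adjusted p = 0.0175), FZD8 (-0.91, adjusted p = 0.0364) and the Ror kinase gene ROR1 (-0.84, adjusted p = 0.00234). FZD7 had 1584, 882 and 1469.7 before and 361 and 988 after culture (-1.07, adjusted p = 0.126), and the 2 cultured arrays differed from each other.

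Among 6 tested Wnt ligand genes WNT11 rose, from 8.92, 6.91 and 12.3 to 89.0 and 53.4 (log2 difference 1.76, adjusted p = 0.00471), and WNT4 had 13.5, 1.93 and 7.10 before and 37.9 and 21.4 after culture (0.96, adjusted p = 0.0514). Of 11 targets 2 rose and 2 fell, with a median of -0.01. AXIN2, a feedback inhibitor induced by Wnt signaling, had 348, 349.8 and 345 before and 730.0 and 471 after culture (0.73, adjusted p = 0.0441), but -0.14 in its other probe set (adjusted p = 0.792). The caudal homeobox gene CDX4 was detected on no fresh array and was at least 2.27-fold higher (adjusted p = 0.0145). TCF7L1, a repressor of Wnt targets, fell (-0.91, adjusted p = 0.00915), and CCND1 is counted here too. FZD5, FZD8, DACT2 and AXIN2 did not pass without pPP set 1 (adjusted p = 0.0516 to 0.0892). FZD5, FZD8, FRZB, KREMEN1 and AXIN2 did not pass without pPP set 2 (adjusted p = 0.0562 to 0.112). FZD8, DACT2 and AXIN2 did not pass without pPP set 3 (adjusted p = 0.0652 to 0.104). FZD5, FZD8, ROR1, FRZB, DACT2, KREMEN1, APCDD1, WNT11, AXIN2, CDX4 and TCF7L1 did not pass without cultured pPP set 1 (adjusted p = 0.058 to 0.461). FZD5, FZD8 and DACT2 did not pass without cultured pPP set 2 (adjusted p = 0.0637 to 0.109). With cultured pPP set 1 left out, 2 antagonists fell and no antagonist, receptor, ligand or target was otherwise called. With set 2 left out, 3 antagonists rose and 3 fell, 2 receptors fell, 2 ligands rose, and 2 targets rose and 2 fell.

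Of 13 tested retinoic acid genes 1 fell and none rose, with a median of -0.19. CYP26A1, which degrades retinoic acid, had 1311, 1415 and 839 in fresh and 545 and 706 in cultured pPPs (-0.89, adjusted p = 0.0271), and was lost without pPP set 1 or 2 or cultured pPP set 1 (adjusted p = 0.0824 to 0.305). Without the array labelled cultured pPP set 2, 1 gene of this list rose and 1 fell. The retinoic acid receptor gene RARB had 0.29 (adjusted p = 0.538). Of 14 Notch genes none was called, with or without that array, with a median of 0.17, and the ligand gene JAG1 had 16.7, 9.39 and 7.10 before and 36.3 and 27.0 after culture (0.83, adjusted p = 0.0589). Of 15 neuropeptide and receptor genes 2 rose and none fell, also without that array, with a median of 0.16. PNOC, which encodes the precursor of nociceptin, had 143, 65.1 and 130.5 before and 396 and 407 after culture (1.76, adjusted p = 0.00172), and the dimmer of its probe sets had 0.67 (adjusted p = 0.378). ADCYAP1, the precursor gene of the peptide PACAP, had 4.60, 5.81 and 11.6 before and 34.9 and 19.3 after culture (0.87, adjusted p = 0.0276). ADCYAP1 did not pass without pPP set 1 or 2 or cultured pPP set 1 (adjusted p = 0.0782 to 0.354). The somatostatin gene SST1 had 95.6, 42.5 and 48.8 before and 44.4 and 47.0 after culture (-0.28, adjusted p = 0.697). Receptor genes were not called: SSTR5, of somatostatin, had 15.3, 14.5 and 23.6 before and 24.6 and 25.5 after culture (0.29, adjusted p = 0.475). OPRL1, of nociceptin, had 64.6, 84.8 and 65.4 before and 72.4 and 60.5 after culture (-0.08, adjusted p = 0.883). The peptide genes PENK and TAC1 had 0.71 and 0.36 (adjusted p = 0.116 and 0.437).

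**Figure D3:**
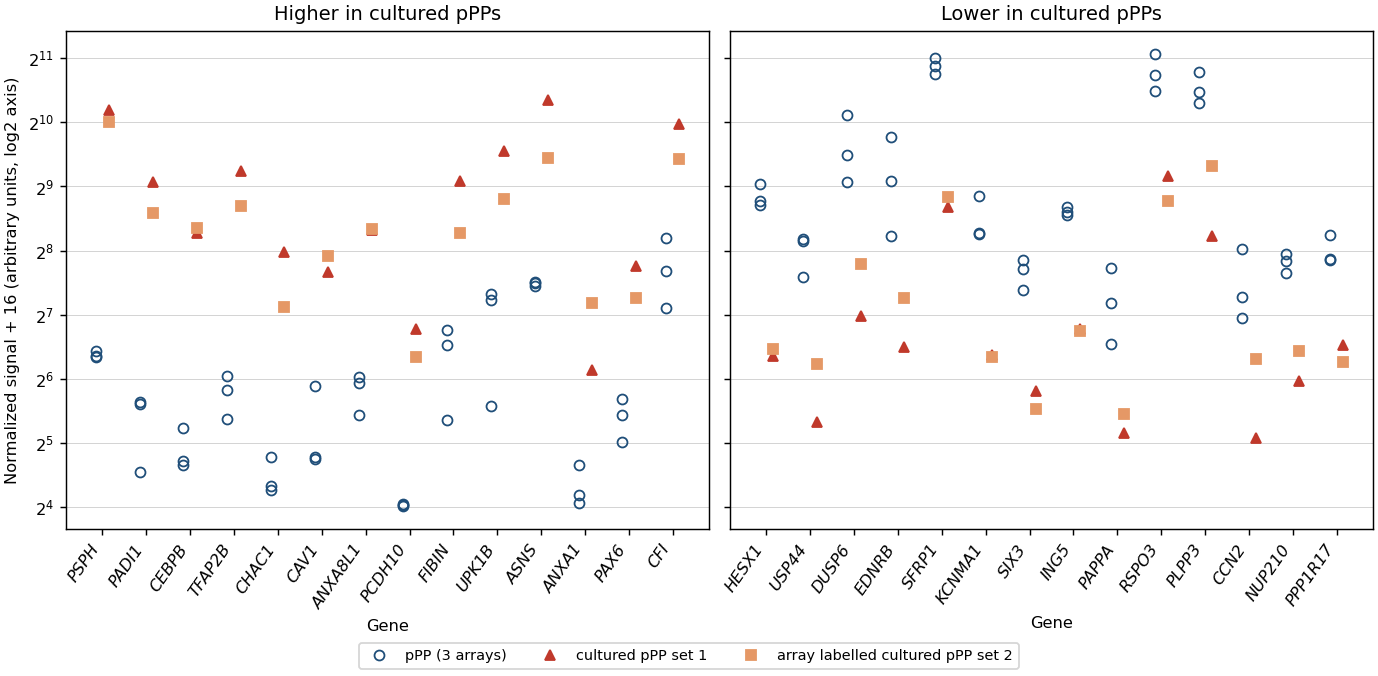
Signals of each array (normalized signal + 16, log2 axis) for the 14 named genes with the largest increases and the 14 with the largest decreases, with 3 open circles for pPP sets 1 to 3, a triangle for cultured pPP set 1 and a square for the array labelled cultured pPP set 2. For PSPH both cultured arrays lie above 1000 and the fresh arrays lie between 65.3 and 70.3, and pPP set 2 stands below the other fresh arrays for UPK1B at 31.7.

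Among the enzymes of amino acid synthesis was PSPH, the gene with the largest increase of those named. When amino acids are scarce or proteins misfold, kinases of the translation factor eIF2 raise translation of ATF4, which induces genes of amino acid synthesis, uptake and tRNA charging. Of 18 tested enzymes of serine, glycine, asparagine and proline synthesis 6 rose and 1 fell, with a median of 0.38. PSPH, the last enzyme of serine synthesis, had 66.0, 65.3 and 70.3 in fresh pPPs and 1152 and 1015 in cultured ones (log2 difference 3.72, standard error 0.20, adjusted p = 1.13e-07), while its dim second probe set had 0.30 (adjusted p = 0.478). ASNS, asparagine synthetase, had 158, 166 and 165 before and 1287 and 677 after culture (2.41, adjusted p = 0.000252), and the cultured arrays differed from each other but not in direction. ALDH18A1, an enzyme of proline synthesis, had 264, 256 and 333 before and 915 and 842 after culture (1.58, adjusted p = 0.000109). The alanine transaminase gene GPT2 (1.39, adjusted p = 0.000901), argininosuccinate synthase, ASS1 (1.18, adjusted p = 0.00298), and PSAT1 of serine synthesis (0.77, adjusted p = 0.000519) rose too, while a second probe set of GPT2 did not pass (0.44, adjusted p = 0.268). PHGDH, the first enzyme of that pathway, had 21.9, 28.8 and 28.0 before and 14.6 and 15.9 after culture (-0.43, adjusted p = 0.217). Glutamine synthetase, GLUL, fell from 914, 889 and 922 to 399 and 695 (-0.77, adjusted p = 0.0276). Without cultured pPP set 1, 5 of the 18 rose and none fell, and without set 2, 7 rose and 1 fell. ASS1 did not pass without cultured pPP set 1 (adjusted p = 0.0724). GLUL did not pass without pPP set 1, 2 or 3 or cultured pPP set 1 (adjusted p = 0.0613 to 0.371).

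Of 19 tested genes of ATF4 and the integrated stress response 6 rose and none fell, with a median of 0.27. CEBPB, a leucine zipper partner of ATF4, had 10.5, 21.6 and 9.33 in fresh and 295 and 311 in cultured pPPs (3.44, standard error 0.22, adjusted p = 3.97e-07). CHAC1, a glutathione degrading enzyme and target of ATF4 in mammals, was detected on no fresh array and was at least 8.45-fold higher at 236 and 124 (adjusted p = 7.35e-05). VLDLR, a lipoprotein receptor, had 128, 77.8 and 83.5 before and 343 and 269.7 after culture (1.54, adjusted p = 0.00157). JDP2, detected on no fresh array, ATF3 and STC2 had 1.06, 1.03 and 0.80 (adjusted p = 0.0306, 0.0165 and 0.0207). ATF4 itself, which is controlled mainly in translation, had 2425, 2715 and 2467 before and 2742 and 2809 after culture (0.13, adjusted p = 0.417). Of 14 amino acid transporters 3 rose and none fell, with a median of 0.24, namely SLC1A3 (1.31), SLC1A4 (0.65) and SLC7A5 (0.55, adjusted p = 0.0213, 0.0166 and 0.0278). Of 18 cytosolic tRNA synthetases 2 rose and none fell, with a median of 0.29, GARS (0.82, adjusted p = 0.0041) and TARS (0.56, adjusted p = 0.0306), and AARS1 had 0.69 (adjusted p = 0.109). Of 24 tested genes of chaperones and the unfolded protein response of the endoplasmic reticulum 1 rose and none fell, near the background, with a median of 0.07. It was the vesicle coat gene SEC24D (0.77, adjusted p = 0.0462), which is not a chaperone of the endoplasmic reticulum. HSPA5, the main chaperone there, had 1973, 1695 and 1718 before and 1997 and 2074 after culture (0.18, adjusted p = 0.367). The list of ATF4 had 3 members higher without cultured pPP set 1 and 4 without set 2. Without set 2, 3 transporters, 3 tRNA synthetases and no chaperone gene of the endoplasmic reticulum rose. Second probe sets of GARS (0.01), SEC24D (0.42), SLC1A3 (0.84) and SLC1A4 (0.37) did not pass (adjusted p = 0.987, 0.397, 0.112 and 0.495). JDP2, STC2, SLC7A5, TARS and SEC24D did not pass without pPP set 1 (adjusted p = 0.0568 to 0.0766). ATF3, STC2, SLC1A3, SLC7A5, TARS and SEC24D did not pass without pPP set 2 (adjusted p = 0.0557 to 0.144). JDP2, SLC1A4, SLC7A5, TARS and SEC24D did not pass without pPP set 3 (adjusted p = 0.0551 to 0.104). JDP2, ATF3, STC2, SLC1A3, SLC1A4, SLC7A5, TARS and SEC24D did not pass without cultured pPP set 1 (adjusted p = 0.135 to 0.435). ATF3, STC2, SLC7A5, TARS and SEC24D did not pass without cultured pPP set 2 (adjusted p = 0.0507 to 0.0823).

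Of 23 tested genes of sterol synthesis and uptake 8 rose and none fell, with a median of 0.49. These genes are induced together by SREBP factors when membrane cholesterol is low. FDPS, the enzyme that makes farnesyl diphosphate, had 49.7, 39.4 and 27.8 in fresh and 213 and 110.4 in cultured pPPs (1.65, standard error 0.30, adjusted p = 0.00596). SC5D, a late desaturase of the pathway, had 45.6, 43.6 and 52.4 before and 159.6 and 109.6 after culture (1.24, adjusted p = 0.00326). STARD4, a cholesterol carrier, had 349, 246 and 258 before and 711 and 619 after culture (1.19, adjusted p = 0.00201), with 1.19 in its other probe set (adjusted p = 0.00702). INSIG1, which holds SREBP inactive, had 820.0, 469 and 806 before and 1103 and 1742 after culture (1.02, adjusted p = 0.0209). DHCR7 (0.99) and MSMO1 (0.88) were also called (adjusted p = 0.0398 and 0.0355). Further probe sets had 2.15 and 0.16 for INSIG1 (adjusted p = 0.000195 and 0.723) and 0.15 for DHCR7 (adjusted p = 0.7). Squalene epoxidase, SQLE, had 824, 604 and 541 before and 1129 and 982 after culture (0.69, adjusted p = 0.0981), and its other probe set rose (0.90, adjusted p = 0.0193). Without cultured pPP set 1, 3 of the list rose, without set 2, 4 rose, and without pPP set 2, whose signals were the lowest of the fresh arrays for MSMO1 and INSIG1, 3 rose. INSIG1, DHCR7 and MSMO1 did not pass without pPP set 2 (adjusted p = 0.0702 to 0.135). DHCR7 and MSMO1 did not pass without pPP set 3 (adjusted p = 0.0556 to 0.132). FDPS, SC5D and DHCR7 did not pass without cultured pPP set 1 (adjusted p = 0.0853 to 0.325). INSIG1, DHCR7 and MSMO1 did not pass without cultured pPP set 2 (adjusted p = 0.076 to 0.236). Of 16 genes of fatty acid synthesis 2 rose and none fell, with a median of 0.15: ELOVL1 (1.34, adjusted p = 0.0156) and AACS (0.90, adjusted p = 0.0318). Their further probe sets did not pass (0.23 and 0.44 for ELOVL1 and 0.52 for AACS, adjusted p = 0.65, 0.349 and 0.148), and 1 gene of the list rose without the array labelled cultured pPP set 2. ELOVL1 did not pass without pPP set 3 or cultured pPP set 1 (adjusted p = 0.0556 to 0.245). AACS did not pass without pPP set 2 or 3 or cultured pPP set 2 (adjusted p = 0.101 to 0.186).

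Outside the lists above, large increases were found for genes of mixed function. The caveolin gene CAV1 had 43.2, 11.4 and 10.98 in fresh and 186 and 226 in cultured pPPs (2.65, adjusted p = 0.000475). The annexin gene ANXA8L1 had 45.2, 27.1 and 49.5 before and 304 and 306 after culture (2.53, adjusted p = 0.000509), and UPK1B, a tetraspanin of epithelial plaques, had 135, 31.7 and 145 before and 732 and 429.5 after culture (2.46, adjusted p = 0.00348). For CAV1, 1 of 3 fresh arrays had a present call. The protocadherin gene PCDH10, detected on no fresh array, was at least 4.81-fold higher at 93.4 and 64.7 (adjusted p = 6.44e-05). CFI, a protease of the complement system, had 2.04, BTBD11 2.03, the acyl-CoA synthetase gene ACSBG2 1.96, the LIM protein gene FHL2 1.96 and the tubulin gene TUBAL3 1.92, as log2 differences (adjusted p = 0.000621, 5.3e-05, 6.74e-05, 5.3e-05 and 0.00157). MYOT, a muscle Z-disc protein gene not detected on fresh arrays, was at least 3.58-fold higher (adjusted p = 0.000942). CFI had 0.01 in its dim second probe set (adjusted p = 0.981) and ANXA8L1 0.32 (adjusted p = 0.394). UPK1B did not pass without cultured pPP set 1 (adjusted p = 0.113). TUBAL3 did not pass without cultured pPP set 1 (adjusted p = 0.0574).

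The largest decreases outside the lists above were mixed in function. USP44, a deubiquitinase of the mitotic checkpoint, had 268, 177 and 275 in fresh and 24.4 and 58.9 in cultured pPPs (-2.20, adjusted p = 0.00169). EDNRB, the endothelin receptor gene of crest and melanocytes, had 524, 860.3 and 282 before and 74.2 and 138 after culture (-2.14, adjusted p = 0.00176). KCNMA1, a calcium activated potassium channel gene, had 289.7, 447 and 295 before and 66.6 and 64.9 after culture (-2.11, adjusted p = 7.96e-05). In each of them the highest cultured array lay below the lowest fresh array, which was a condition for naming a gene among the 20 largest decreases. PAPPA, a protease that cleaves insulin-like growth factor binding proteins, had 129, 197 and 77.7 before and 19.6 and 28.0 after culture (-1.85, adjusted p = 0.0082), with no present call on cultured pPP set 1. PLPP3, a lipid phosphatase, had 1242, 1406 and 1742 before and 285 and 620.2 after culture (-1.74, adjusted p = 0.000565), and CCN2, a matrix protein and YAP target, had 108, 139 and 245 before and 17.6 and 63.1 after culture (-1.73, adjusted p = 0.00962). ING5 (-1.86), the nuclear pore gene NUP210 (-1.62), PPP1R17 (-1.59), LRIG3 (-1.59), PRKCDBP (-1.58), the kinase gene SYK (-1.54), OTOP1 (-1.50), an otoconia gene of the inner ear, and BCL11A (-1.48) completed the 20 largest decreases together with FZD5 and genes named above. BCL11A did not pass without pPP set 2 (adjusted p = 0.0773). USP44, EDNRB, PAPPA, CCN2, LRIG3, PRKCDBP and SYK did not pass without cultured pPP set 1 (adjusted p = 0.0637 to 0.222). BCL11A did not pass without cultured pPP set 2 (adjusted p = 0.146). Of 3 further probe sets of KCNMA1, 1 fell (-1.33, adjusted p = 0.00234). In further probe sets NUP210 had -0.07, BCL11A -0.96 and -0.34, LRIG3 -0.80 and PAPPA -1.10 and -0.32, none of which passed (adjusted p = 0.869, 0.0819, 0.437, 0.0867, 0.129 and 0.544).

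Of the markers of other cells, some rose. Of 12 tested mesoderm genes 2 rose and none fell, with a median of 0.44, or 0.39 with genes not detected on fresh arrays held at their bound. FOXC2, a forkhead gene of head mesoderm, had 852, 404 and 933 in fresh and 1742 and 1789.8 in cultured pPPs (1.34, adjusted p = 0.00475), and the matrix gene LUM, detected on no fresh array, was at least 2.15-fold higher (adjusted p = 0.00714). ISL1 and PRRX1 had 1.37 and 0.98 (adjusted p = 0.108 and 0.0903). Summed over the 12 genes, of which FOXC2 gave the most, signals were 532 to 1100 on fresh and 2062 to 2151 on cultured arrays. Of 9 blood and endothelium genes 2 rose, with a median of 0.31, or 0.21 at the bounds. The embryonic globin gene HBE, a member of a family of similar sequences, had 41.7, 21.1 and 37.9 before and 254 and 109.9 after culture (1.92, adjusted p = 0.00367). FLT1, detected on no fresh array, had 0.89 (adjusted p = 0.0136). The defining endothelial gene KDR had no present call on any fresh array and none on cultured pPP set 1. Their sums were 101 to 137 and 243 to 441. None of 11 mesendoderm, notochord and endoderm genes was called, with a median of -0.10 and sums of 371 to 501 and 321 to 366, and HHEX had 185, 188 and 162 before and 145 and 106 after culture. Without the array labelled cultured pPP set 2, 1 mesoderm and 2 blood and endothelium genes rose and no mesendoderm gene was called. The part of these cells in the results above was not tested, and fewer cells of a type and less RNA per cell cannot be told apart in such tissue pieces. FOXC2, HBE and FLT1 did not pass without cultured pPP set 1 (adjusted p = 0.0736 to 0.18). LUM did not pass without cultured pPP set 2 (adjusted p = 0.0705).

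The posterior response was set beside the anterior one. Cultured aPPs against aPPs use none of the 5 posterior arrays, although all 10 share 1 estimate of the spread. Of all 21591 probe sets tested, 454 were called higher and 347 lower in cultured aPPs. Of the 483 probe sets higher in cultured pPPs, 197 were called higher in both (40.8 percent, and 43.4 percent of the 454). Of the 366 lower, 119 were called lower in both (32.5 percent, and 34.3 percent of the 347). Of the posterior ones, none of the 483 was called lower in cultured aPPs and 1 of the 366 was called higher. Differences of opposite sign that were not called, such as -1.03 for FIBIN in aPPs (adjusted p = 0.128), are not in these counts. The overlap was not counted without the array labelled cultured pPP set 2. That array correlated more closely with the cultured aPP arrays than with cultured pPP set 1, whose own closest array it was. Its part in the overlap was not tested. PSPH, CEBPB and PAX6 had anterior log2 differences of 4.27, 3.95 and 2.30. For PADI1 and SIX3 the anterior values were 1.41 and 0.11, and tests of the difference did not pass (adjusted p = 0.177 and 0.107).

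The difference of the 2 responses was itself tested, and 3 probe sets passed (0.0139 percent of those tested). With single arrays left out this number moved, and it was largest without the array labelled cultured pPP set 2, whose title conflicts with a column name. A small number therefore does not show that the 2 regions responded alike. SP8, a zinc finger gene of anterior neural ectoderm and olfactory placode, had 1236, 858 and 1184 in fresh and 1179 and 1486 in cultured pPPs. In aPPs it had 123, 123 and 114 before culture and 871 and 1121 after it. The posterior arrays thus began at the level that the anterior ones had after culture (log2 differences 0.29 and 2.89, difference -2.59, adjusted p = 0.000514). FIBIN, a secreted protein gene, had 76.1, 25.2 and 93.1 before and 528 and 294 after culture in pPPs, against 883, 1413 and 1539 before and 640.2 and 566 after culture in aPPs (2.46 and -1.03, difference 3.49, adjusted p = 0.0195). Here the posterior and anterior levels approached each other. An unnamed probe set went from 92.3, 58.5 and 81.0 to 617 and 466 in pPPs and had a response of 0.15 in aPPs (difference 2.43, adjusted p = 0.0195). For SP8 the difference passed with each of the 10 arrays left out in turn (adjusted p = 0.000238 to 0.015). FIBIN did not pass without aPP set 2 or 3, either cultured aPP or cultured pPP set 1 (adjusted p = 0.0599, 0.102, 0.0956, 0.216 and 0.274), and the unnamed probe set did not without aPP set 3, either cultured aPP or cultured pPP set 1 (adjusted p = 0.0942, 0.179, 0.0575 and 0.274). The retinoic acid enzyme gene CYP26A1 and CCND1 had differences of 1.69 and -1.31 and did not pass (adjusted p = 0.0821 and 0.0848).

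**Figure D4:**
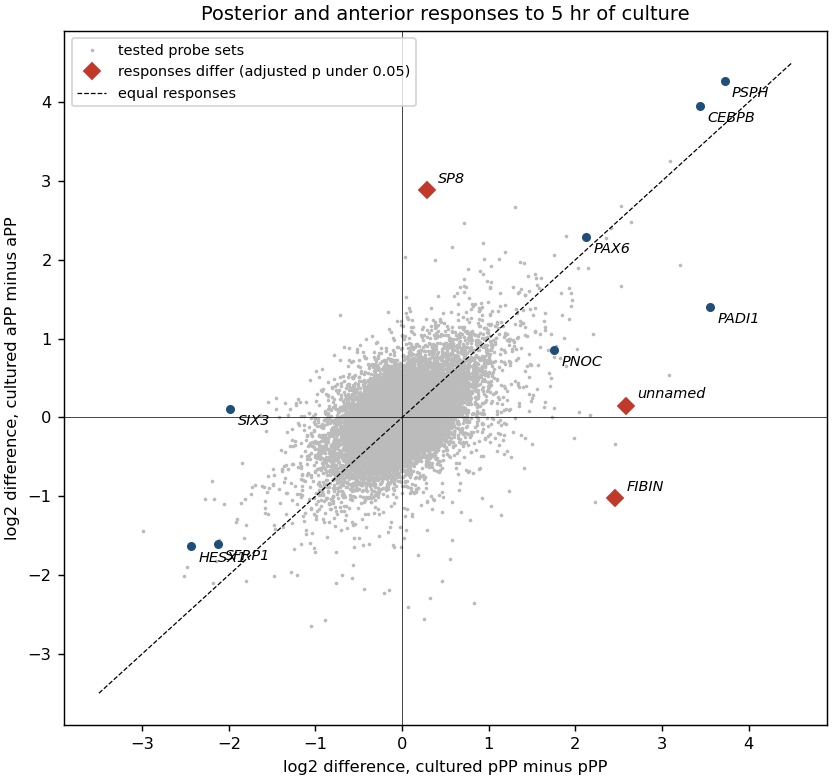
Each point is 1 of 21591 tested probe sets, with the log2 difference of cultured pPPs to pPPs on the x axis and that of cultured aPPs to aPPs on the y axis, and a dashed line of equal responses. The 3 diamonds are the probe sets whose responses differed, with SP8 at 0.29 and 2.89 and FIBIN at 2.46 and -1.03, while PSPH, CEBPB and PAX6 lie near the line.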

How the data were processed

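The authors hybridized each sample to 1 Affymetrix chicken array and deposited MAS5 signal intensities, 1 per probe set, and a table that repeats them with detection calls. The deposited values were not scaled to 1 level, with trimmed means of 53.0 to 168 per array and 44.7 to 50.2 percent of probe sets present. The signals were quantile normalized over the 10 arrays and analysed as log2(signal + 16). Of 38439 probe sets that are not controls, the 21591 with a present call on 2 or more arrays were tested, and 13373 were never present. Gene symbols came from the platform annotation: 27168 probe sets had 1, 177 several and 11011 none. Of the columns, 6 could not be matched to a sample and were not used. Of the call columns of fresh pPPs, 1 names the posterior region but no set. It was counted as a fresh pPP array, and statements of detection on fresh arrays rest in part on it. The calls of cultured pPP set 2 were not used, since the column that repeats its signals is named for anterior tissue.

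Group means of all 10 arrays were fitted with limma 3.58.1 in R 4.3.3, with an intensity trend and Benjamini-Hochberg adjustment, and figures were drawn with matplotlib 3.10.9. For each gene the tested probe set with the highest mean level was taken. Named are genes central to the study, the 20 largest increases and decreases without overlap of groups, up to 6 called members and some uncalled members of each list, and genes whose responses differed. A gene with no present call in fresh pPPs but one in cultured pPPs was given as a lower bound, against the higher of its own signal and the highest of the arrays' lowest present signals. For JDP2 and FLT1 all fresh signals lay above that floor. Their bound equals the plain fold, and the log2 difference is given instead. The members and lists were chosen with earlier results of these data known. Alternatives were other offsets, scalings, filters and fits, a block for the set number and leaving out each array. The fit was tested on simulated data.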

Additional observations from a re-analysis of the deposited data

Results flagged for a closer look

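Of 21591 probe sets, 3 had a response to culture in pPPs that differed from the response in aPPs by limma's test of the difference itself. SP8 differed by -2.59 (log2, posterior minus anterior response, adjusted p = 0.000514), since both cultured aPP arrays rose above all 3 fresh ones while the cultured and fresh pPP arrays overlapped. FIBIN differed by 3.49 (adjusted p = 0.0195), higher in both cultured pPPs and lower in both cultured aPPs than on every fresh array of the same region. A probe set with no gene name differed by 2.43 (adjusted p = 0.0195), with both cultured pPPs above all fresh pPPs and overlapping groups in aPPs.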

How the results depend on the processing

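In cultured pPPs 483 probe sets were higher and 366 lower, and 3 responses differed between pPPs and aPPs. With 1 of the 10 arrays left out, the numbers ranged from 96 to 549, from 69 to 536 and from 1 to 54. Without normalization they were 10, 8 and 0, where the median of all tested probe sets lay at -0.20 in place of -0.01, and the cause was not tested. Without the detection filter, which tests more probe sets, they were 310, 206 and 1, and with a log2 difference of at least 1 required, 231 were higher and 154 lower. With trimmed-mean scaling 440 were higher and 449 lower, so that the share of higher among called probe sets moved. The number of differing responses was 1 with an offset of 1, 10 with an offset of 64 and 7 with array weights. The set number as a replicate block gave 611 higher, 559 lower and 15 differing responses. Deviations of same-numbered pPP and cultured pPP arrays from their group means correlated at 0.06 and -0.11. With 2 cultured arrays the deviations of one mirror those of the other. These values therefore cannot tell whether same-numbered arrays belong together. The difference for FIBIN did not pass with an offset of 1 (3.82), without the filter (3.49) or without the intensity trend (3.49), and that of the unnamed probe set did not with an offset of 1 (2.62) or without the filter (2.43). Without normalization neither these (3.41 and 2.45) nor SP8 (-2.58) passed. Of 119 called genes named here none changed sign in their probe set under the settings tried, and 13 were called without normalization, 51 without cultured pPP set 1 and 93 without set 2. Other probe sets had the opposite sign for GRHL3 (-0.4035), APCDD1 (-0.0222), AXIN2 (-0.1424) and KIF20A (-0.2367). Among genes not called, leaving out 1 array changed the sign of SST1 (-0.463 to 0.0029), OPRL1 (-0.1863 to 0.0228), GBX2 (-0.0479 to 0.2146), DLX5 (-0.0895 to 0.1965) and TFAP2A (-0.2662 to 0.0828), and so did no normalization for GBX2 (-0.1209) and the block for TFAP2A (0.0472). Groups of 2 and 3 arrays limit the precision, and in simulated data of this size 98 of 200 probe sets changed 2-fold were recovered. The 200 were drawn from probe sets above the median level, so recovery of dim ones was not tested. Of 21391 unchanged probe sets 8 were called.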

Other observations

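Gene groups outside the comparisons above also held called members, where 3.15 percent of all genes rose and 1.83 percent fell. Of 42 tested genes of extracellular matrix and integrins 3 rose and 2 fell, with a median log2 difference of 0.11. The integrin subunit gene ITGB3 had 37.5, 24.3 and 31.1 in pPP sets 1, 2 and 3 and 162 and 83.5 in cultured pPP sets 1 and 2 (1.51, adjusted p = 0.00309), and the matrix protease gene MMP2 (1.33) and the collagen gene COL9A1 (1.23) rose as well (adjusted p = 0.0475 and 0.00702). ITGA6, a laminin receptor subunit, fell from 1619, 1862 and 1816 to 682 and 1112 (-1.003, adjusted p = 0.00226), and VCAN, a proteoglycan gene, had -0.84 (adjusted p = 0.00712). Of 33 axon guidance genes 4 rose and 1 fell, with a median of -0.07: NRP2 (1.21), DRAXIN (1.05), EPHA7 (0.99) and PLXNA2 (0.96) rose, and EPHA4 fell from 58.6, 92.0 and 98.5 to 10.8 and 31.2 (-1.45, adjusted p = 0.00952). Of 24 cadherins and claudins 2 rose, PCDH10 and CDH1, with a median of -0.01. Second probe sets of ITGA6 (-0.31) and NRP2 (0.06) did not pass (adjusted p = 0.453 and 0.908). With the array labelled cultured pPP set 2 left out, 2 matrix genes rose and 3 fell, 2 guidance genes rose and 3 fell, and 2 cadherins and claudins rose and 2 fell. MMP2 and EPHA7 did not pass without pPP set 1 (adjusted p = 0.0568 to 0.0974). MMP2 and PLXNA2 did not pass without pPP set 2 (adjusted p = 0.0733 to 0.139). MMP2 did not pass without pPP set 3 (adjusted p = 0.0617). ITGB3, MMP2, COL9A1, VCAN, NRP2, EPHA7, PLXNA2 and EPHA4 did not pass without cultured pPP set 1 (adjusted p = 0.0903 to 0.224). MMP2, EPHA7 and PLXNA2 did not pass without cultured pPP set 2 (adjusted p = 0.0608 to 0.234).

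Of 36 tested genes of cell cycle and DNA replication 1 rose and 3 fell, with a median of -0.12, and the share that rose was near the 3.15 percent of all genes. The replicative helicase genes MCM2 and MCM3 had -0.63 and -0.75 (adjusted p = 0.00712 and 0.0316), CCND1 fell too, and the mitotic kinesin gene KIF20A had 0.64 (adjusted p = 0.00601) with -0.24 in its other probe set (adjusted p = 0.465). PCNA, the sliding clamp of replication, had 1297, 1466 and 1929.6 before and 937 and 1256 after culture (-0.50, adjusted p = 0.121). Of 31 genes of glycolysis and the hypoxia response 1 rose, NDRG1 (0.55), and 1 fell, PFKFB3 (-0.996), with a median of -0.06 (adjusted p = 0.0498 and 0.0361). These counts were near the shares of all genes. Of 16 immediate early genes 3 rose and 1 fell, with a median of 0.16: BTG2 (1.34), ATF3 and KLF6 (1.01) were higher, CCN2 was lower, and JUN had 84.0, 90.8 and 96.5 before and 127 and 129.6 after culture (0.44, adjusted p = 0.216). Of 24 heat shock genes 2 rose, the collagen chaperone gene SERPINH1 (1.03, adjusted p = 0.00109) and HSPB9 (0.97, adjusted p = 0.0386), with a median of 0.11, and HSPA8 had 0.06 (adjusted p = 0.811). None of 17 genes of p53 targets and cell death was called, with a median of 0.29, and CDKN1A, detected on no fresh array, had 30.6 and 17.1 after culture and did not pass (adjusted p = 0.112). The only HOX gene tested was not called (-0.10). Further probe sets of NDRG1 and HSPB9 did not pass (0.43 and 0.31 for NDRG1 and 0.55 for HSPB9, adjusted p = 0.606, 0.574 and 0.243). With the array labelled cultured pPP set 2 left out, 1 cell cycle gene rose and 3 fell, 1 glycolysis or hypoxia gene rose and 1 fell, 2 immediate early genes rose and 1 fell, 2 heat shock genes rose and 1 gene of p53 targets and cell death rose. NDRG1 and HSPB9 did not pass without pPP set 1 (adjusted p = 0.0699 to 0.106). MCM3, NDRG1, PFKFB3, KLF6 and HSPB9 did not pass without pPP set 2 (adjusted p = 0.0699 to 0.169). MCM3, PFKFB3 and HSPB9 did not pass without pPP set 3 (adjusted p = 0.0705 to 0.0806). MCM3, KIF20A, NDRG1, PFKFB3 and HSPB9 did not pass without cultured pPP set 1 (adjusted p = 0.116 to 0.45). MCM3 and KLF6 did not pass without cultured pPP set 2 (adjusted p = 0.0628 to 0.125).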
